A study of Mus musculus with 12 samples.

Results

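The interferon-stimulated genes are genes whose transcripts rise when a cell receives an interferon, and a list of 37 of them was followed here in mouse liver and in F9 cells. Of the 37 genes, 35 had a probe set annotated to that gene alone, out of 18193 genes measured, and each was represented by its brightest such probe set in each tissue. Isg15 had only a probe set shared with a second gene, and Ifi44 had no probe set of its own, so neither was tested. The 35 measured genes were grouped by role into interferon signalling and transcription factors (4), sensors of foreign nucleic acid (3), the ISG15 protease (1), IFIT proteins (3), oligoadenylate synthetases (5), other antiviral effectors (7), interferon-inducible GTPases (6), antigen processing (4) and chemokines (2).

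The livers came from 3 male C57BL/6 mice with a hepatocyte-specific knockout of Sephs1, the gene of selenophosphate synthetase 1 (SPS1), driven by Alb-Cre, and from 3 male control C57BL/6 mice. All 6 mice were 3 months old. Cre under the albumin promoter is meant to act in hepatocytes, and which cells of these livers kept the gene was not measured here. The genotype of the control livers (with or without Cre or the floxed allele) is not given in the sources used here. The cells were F9, a male mouse embryonal carcinoma line of strain 129 from a testicular teratoma, as 3 samples with an shRNA against SPS1 (shSPS1) and 3 control samples, whose vector is not given in the sources used here. All 12 samples were labelled as biological replicates, but separate cultures are not named for F9, so the p-values there cover the spread between these samples, which may be technical.

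Interferons are secreted proteins that bind receptors on the cell surface and activate the JAK kinases, which phosphorylate STAT transcription factors. Type I interferons act mainly through a complex that holds STAT2 and IRF9 and binds the interferon-stimulated response element, and interferon gamma acts mainly through the gamma-activated site. The induced genes restrict viruses, break down foreign RNA, load peptides on MHC class I and attract T cells, and in liver they are expressed by hepatocytes as well as by Kupffer cells and other immune cells.

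Promoters are shown for some of the genes named below, to show which of these elements each carries near its start. Each promoter shown holds at least 1 of these elements. No gene without either element is shown, and Oasl1, Oasl2 and Xaf1 are such genes. Each run is the RefSeq sequence (GRCm38.p6) from position -160 to -31 relative to the transcription start, read 5′ to 3′ on the gene's strand. The capitals mark matches on either strand to GAAANNGAA, the core of the interferon-stimulated response element, or to TTCNNNGAA, the gamma-activated site. Matches that overlap run into each other.
Ifit3 (chr19:34583369-34583498, + strand): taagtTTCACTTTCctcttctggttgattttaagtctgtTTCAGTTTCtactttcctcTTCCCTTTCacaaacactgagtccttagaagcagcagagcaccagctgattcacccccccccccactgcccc
Ifit1 (chr19:34640729-34640858, + strand): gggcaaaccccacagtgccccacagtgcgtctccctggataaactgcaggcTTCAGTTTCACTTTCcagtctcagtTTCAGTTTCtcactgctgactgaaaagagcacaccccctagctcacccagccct
Gbp7 (chr3:142530176-142530305, + strand): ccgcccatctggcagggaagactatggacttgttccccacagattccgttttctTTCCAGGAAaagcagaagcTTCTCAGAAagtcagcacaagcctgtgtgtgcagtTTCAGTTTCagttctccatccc
Irf1 (chr11:53769854-53769983, + strand): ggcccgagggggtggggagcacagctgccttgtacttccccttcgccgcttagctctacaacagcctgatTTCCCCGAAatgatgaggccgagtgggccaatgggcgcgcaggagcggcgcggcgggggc
Bst2 (chr8:71537503-71537632, - strand): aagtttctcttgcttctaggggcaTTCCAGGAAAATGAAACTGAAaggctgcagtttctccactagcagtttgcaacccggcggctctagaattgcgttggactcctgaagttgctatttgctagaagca
B2m (chr2:122147527-122147656, + strand): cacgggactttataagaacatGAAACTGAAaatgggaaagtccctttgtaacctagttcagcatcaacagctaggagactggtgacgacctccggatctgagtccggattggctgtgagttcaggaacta
The window of Ifit3 held 3 response element cores and that of Ifit1 held 3, while the window of Irf1 held 0 of these cores and 1 gamma-activated site. Gbp7 held 1 core and 2 gamma-activated sites, Bst2 held 2 cores and 1 gamma-activated site that overlap, and B2m held 1 core.

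From 250 bases before to 50 after the start, 29 of the listed genes had a promoter in the RefSeq table. The response element core was found in 18 of these 29 (62.1%) and in 9.76% of 27025 genes with a promoter. The gamma-activated site was found in 8 of the 29 (27.6%) and in 9.55% of all such genes. Either motif was found in 22 of the 29 (75.9%), against 17.9% of all. Of the measured genes with a promoter, 16 held the response element core in the liver set, with a median difference of -0.43, and 11 did not, with a median of -0.34, so the sign of the median was the same with and without these letters. The promoters of Oasl1, Oasl2 and Xaf1 held neither motif in this window, which says only that these letters are not in these bases.

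Both tables hold log2 values of 6 arrays each, and the groups were compared within a table with limma across all genes. Genes with an adjusted p (Benjamini-Hochberg) under 0.05 are said to have passed. Sephs1 was 7.79, 7.84 and 7.77 in shSPS1 cells, against 10.04, 10.03 and 9.94 in control cells (log2, a difference of -2.20, SE 0.07, adjusted p = 1.28e-05). In livers labelled knockout it was 9.89, 10.05 and 10.15, against 9.85, 9.74 and 9.93 in control livers (0.19, adjusted p = 0.789). Where the deletion lies is not given in the sources used here, and a probe set outside the deleted part checks nothing, so directions in liver are those of the livers labelled knockout. The 9 measured hepatocyte markers were all in the brighter part of the liver table and the 10 embryonal carcinoma markers all in the brighter part of the F9 table. In liver 8 of 18193 genes passed, and in F9 1310 did.

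The signal of the interferon-stimulated genes stood at different ranks in the tables of liver and F9. Among all genes of its own table the median signal percentile of the 35 genes was 68.4 in liver and 32.8 in F9 cells. In liver 30 of the 35 lay in the brighter part of all genes, and in F9 cells 8 did. The percentile ranks probe set signals within a table normalized by itself, and is no amount of RNA. The guanylate-binding protein Gbp7 ranked at 79.0 in liver and 22.8 in F9 cells, and Usp18, the protease that removes ISG15 from proteins, at 73.2 and 6.17. The genes in the brighter part in F9 cells included B2m (76.3), Irf1 (65.4) and Bst2 (58.9).

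**Figure D1:**
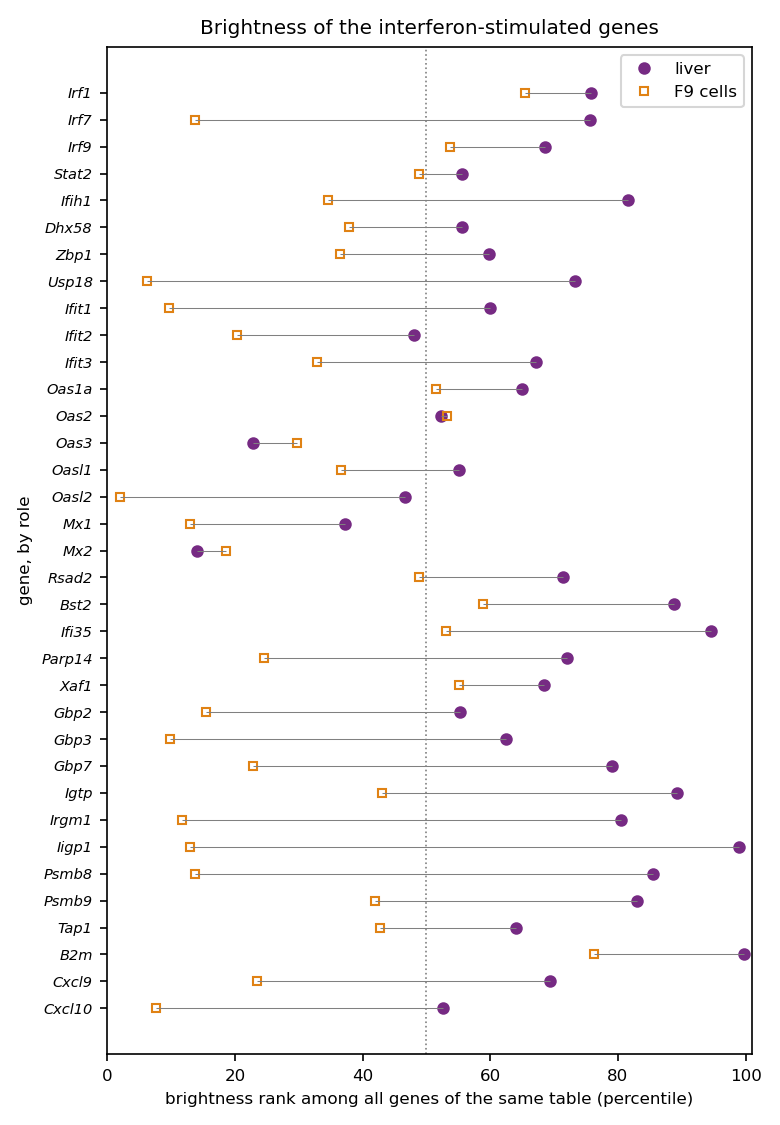
Signal percentile of each of the 35 genes among all 18193 genes of the same table (x axis, 0 to 100), with filled circles for liver, open squares for F9 cells and a dotted line at the median of all genes. In liver 30 genes lie to the right of that line, and in F9 cells 8 do.

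The liver comparison asked how transcripts of the liver differ when hepatocytes lose Sephs1. The interferon-stimulated genes were mostly at lower values in knockout livers: 30 of 35 had a negative difference and 5 a positive one, with a median of -0.37 (log2), against a median of 0.03 over all genes. None of the 35 passed, where 8 of 18193 genes passed (0.044%), and 2 were lower at an unadjusted p under 0.05, Oasl1 and Oasl2. Much of the shift came with 1 array: control liver 2 was the highest of the 6 arrays in 26 of the 35 genes (74.3%), against 16.5% of all genes. The mean deviation from each gene's mean over the 6 arrays was 0.61 on control 2, and -0.03 and -0.12 on controls 1 and 3. It was 0.01, -0.25 and -0.23 on knockout livers 1, 2 and 3, so knockout liver 1 did not lie below controls 1 and 3. Without control liver 2 there were 22 genes lower and 13 higher, with a median of -0.10. Oasl1, Oasl2, Ifit3 and Irf1 then differed by -0.65, -0.39, -0.38 and -0.34. All knockout livers lay below all control livers in these genes, so leaving out a control could not turn their sign.

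A negative difference was found for 45.8% of all genes, against 85.7% of the 35. In 4 of the 35 genes (11.4%) all knockout livers lay below all control livers, against 6.36% of all genes. All knockout livers lay above all control livers in 1, against 8.42% of all genes. At an unadjusted p under 0.05, 2 genes were lower, against 3.2% of all genes, and 0 were higher, against 4.08%. After quantile normalization 30 of the 35 were again lower, the median was -0.34, and the groups lay apart in 6 genes, all lower. Over all genes 47.6% were then lower, and the groups lay apart as lower in 6.78% and as higher in 7.83%. All 35 genes were measured on the same 6 arrays, so they are not independent of each other.

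**Figure D2:**
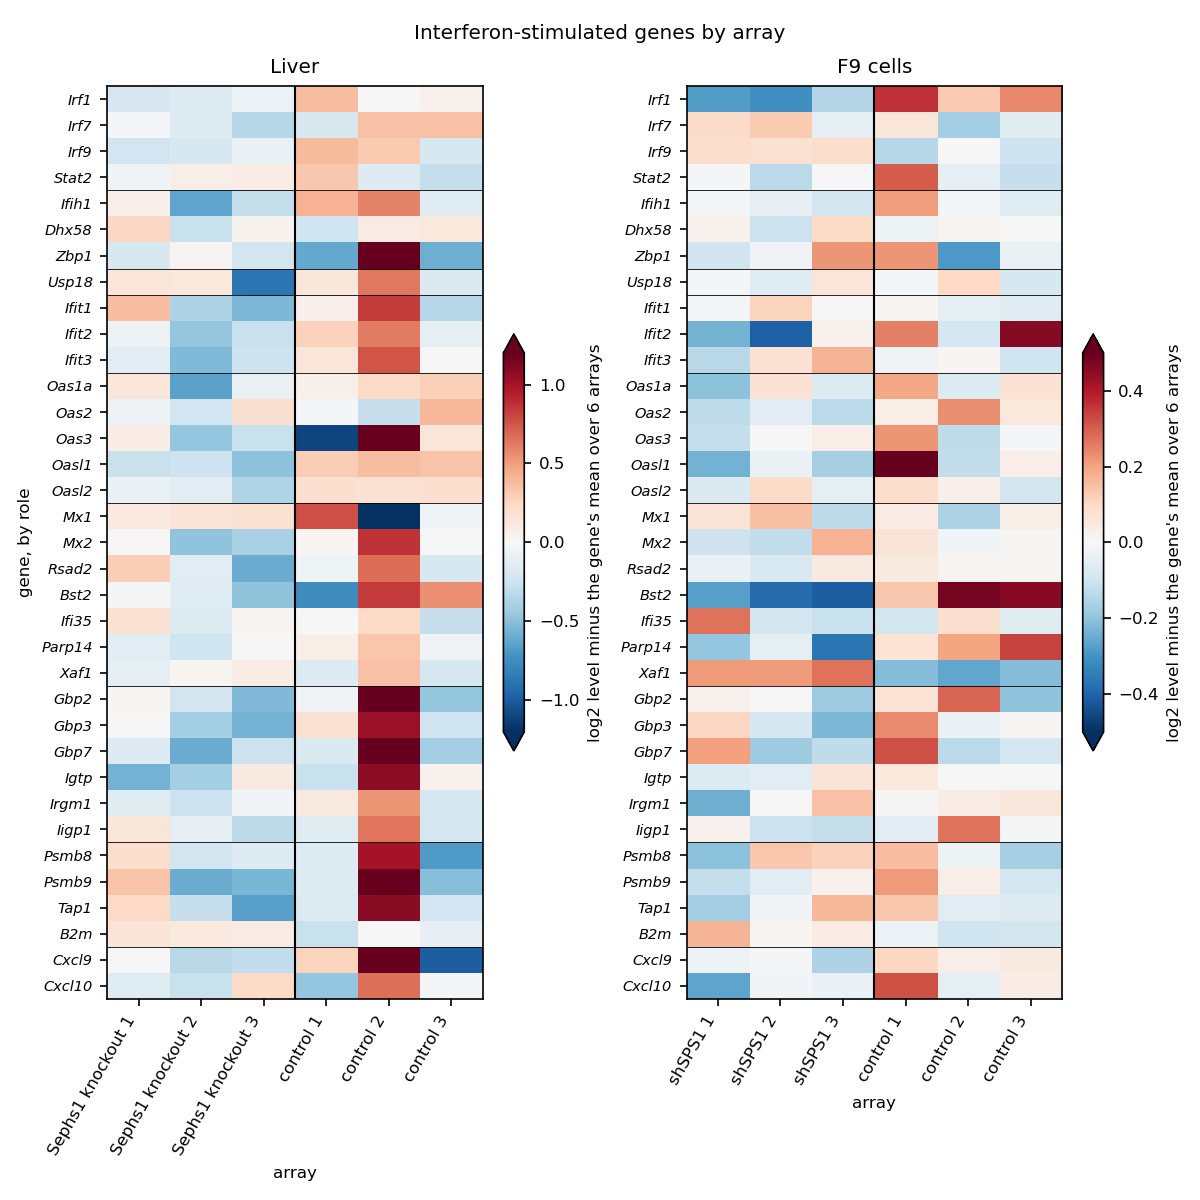
Log2 level of each of the 35 genes on each array minus its mean over the 6 arrays of the tissue (colour scale, red above and blue below the mean), for liver (left) and F9 cells (right), with knockout or shSPS1 arrays left of the black line and control arrays right of it. In liver the column of control 2 is the highest of 6 in 26 genes, and its mean deviation is 0.61. The colour scale is narrower for F9 cells, and values beyond a scale take its end colour.

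Among the transcription factors, Irf1, an early target of interferon gamma that itself activates other members, was 9.55, 9.60 and 9.68 in knockout livers, against 10.12, 9.76 and 9.80 in control livers. The groups did not overlap, though knockout liver 3 came close to control liver 2, and the highest array was control 1. The difference was -0.28 (SE 0.15, 95% interval -0.66 to 0.10, adjusted p = 0.739, limma). Without control 2 it was -0.34, and without control 1 it was -0.16. Irf7, the amplifier of type I interferon production, and Irf9, a DNA-binding part of the complex with STAT2, each differed by -0.34, with groups that overlapped. Stat2 differed by 0.08.

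Of the sensors, Ifih1, which encodes the RNA sensor MDA5, had the smallest p. It was 10.40, 9.70 and 10.05 in knockout livers, against 10.75, 10.93 and 10.19 in control livers. Knockout liver 1 lay above control liver 3, so the groups overlapped, and the difference was -0.57 (SE 0.28, adjusted p = 0.725, limma). Dhx58, a regulator of RNA sensing, differed by 0.01. Zbp1, a sensor of Z-form nucleic acid, differed by -0.25 with all arrays and by 0.48 without control 2, the array where it reached 9.85. Usp18 was 9.64, 9.62 and 8.62 in knockout livers, against 9.63, 10.13 and 9.32 in control livers. Only knockout liver 3 lay below all controls, and the difference was -0.40 (SE 0.37, adjusted p = 0.831, limma).

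The IFIT genes encode proteins that bind viral RNA, and all 3 had negative differences. Ifit3 was 8.83, 8.44 and 8.72 in knockout livers, against 9.11, 9.72 and 8.97 in control livers. Each knockout array lay below each control array, and control 2 was the highest. The difference was -0.60 (SE 0.25, 95% interval -1.22 to 0.01, adjusted p = 0.692, limma), and -0.38 without control 2. Ifit2 differed by -0.52 and Ifit1 by -0.37, and without control 2 these values were -0.34 and -0.04.

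The oligoadenylate synthetase family held the members with the smallest p in liver. Its enzymes make the messenger that activates RNase L, while the product of Oasl1 is an enzymatically inactive relative that restrains translation of Irf7 in mice. Oasl1 was 7.56, 7.58 and 7.34 in knockout livers, against 8.12, 8.20 and 8.17 in control livers. The control arrays lay close together and well above all knockout arrays. The difference was -0.67 (SE 0.13, 95% interval -1.0 to -0.34, adjusted p = 0.304, limma), a 1.59-fold lower level, and the array left out moved it between -0.71 and -0.59. Oasl2 was 6.98, 6.93 and 6.70 in knockout livers, against 7.26, 7.24 and 7.26 in control livers. Again no array of a group reached the other group, and control 2 did not stand out. The difference was -0.39 (SE 0.13, 95% interval -0.72 to -0.05, adjusted p = 0.637, limma), a 1.31-fold lower level. Oas1a, Oas2 and Oas3, which encode other members of the family, differed by -0.39, -0.08 and -0.43 with overlapping groups, and Oas3 turned to 0.26 without control 2.

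Among the other antiviral effectors, the GTPase gene Mx2 had the smallest p. It was 4.49, 4.01 and 4.11 in knockout livers, against 4.52, 5.36 and 4.49 in control livers, at a low signal (percentile 14.1). Knockout liver 1 equalled control liver 3 to 2 decimals, and the difference was -0.58 (SE 0.30, adjusted p = 0.73, limma). Mx1 ran the other way on control 2, which at 5.12 was the lowest of its 6 arrays, and differed by 0.31. Bst2, the tetherin gene, whose product holds budding virus at the cell surface, differed by -0.43, with control livers spread from 10.49 to 12.08. Rsad2, which encodes viperin, and the ADP-ribosyltransferase gene Parp14 differed by -0.28 and -0.25. Ifi35 and Xaf1 differed by 0.03 and 0.00.

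All 6 interferon-inducible GTPase genes, which encode proteins that attack the vacuoles of intracellular pathogens, had negative differences (-0.67 to -0.19, median -0.53). At the brightest probe set the groups overlapped in each. Gbp3 had the smallest p of these. It was 8.52, 8.11 and 7.95 in knockout livers, against 8.70, 9.55 and 8.28 in control livers. Control 2 lay far above the rest and the other control arrays lay near or among the knockout arrays. The difference was -0.65 (SE 0.37, adjusted p = 0.742, limma), and -0.30 without control 2. Gbp7 differed by -0.67 with all arrays and by -0.05 without control 2, where its level was 11.65 against 9.90 and 9.67 in the other control livers. Over the 6 genes the mean deviation of control 2 was 1.01, while those of the knockout arrays were -0.12, -0.33 and -0.27 and those of controls 1 and 3 were -0.05 and -0.24.

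In antigen processing, B2m, the light chain of MHC class I, was the 1 gene higher with groups apart. It was 15.38, 15.35 and 15.33 in knockout livers, against 14.96, 15.22 and 15.13 in control livers. The knockout arrays lay close together and above all controls. The difference was 0.25 (SE 0.13, 95% interval -0.07 to 0.57, adjusted p = 0.73, limma) as deposited, and -0.05 after quantile normalization. The immunoproteasome subunit genes Psmb8 and Psmb9 and the peptide transporter gene Tap1 differed by -0.11, -0.53 and -0.46 with all arrays, and by 0.36, 0.07 and -0.04 without control 2. Of the chemokines, Cxcl9, a ligand of CXCR3, a chemokine receptor found on T cells, was 9.15, 8.82 and 8.86 in knockout livers, against 9.42, 10.52 and 8.17 in control livers. The control livers lay on both sides of the knockout livers. The difference was -0.43 (SE 0.60, adjusted p = 0.883, limma), and 0.15 without control 2. Cxcl10, a second ligand of that receptor, differed by -0.12.

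**Figure D3:**
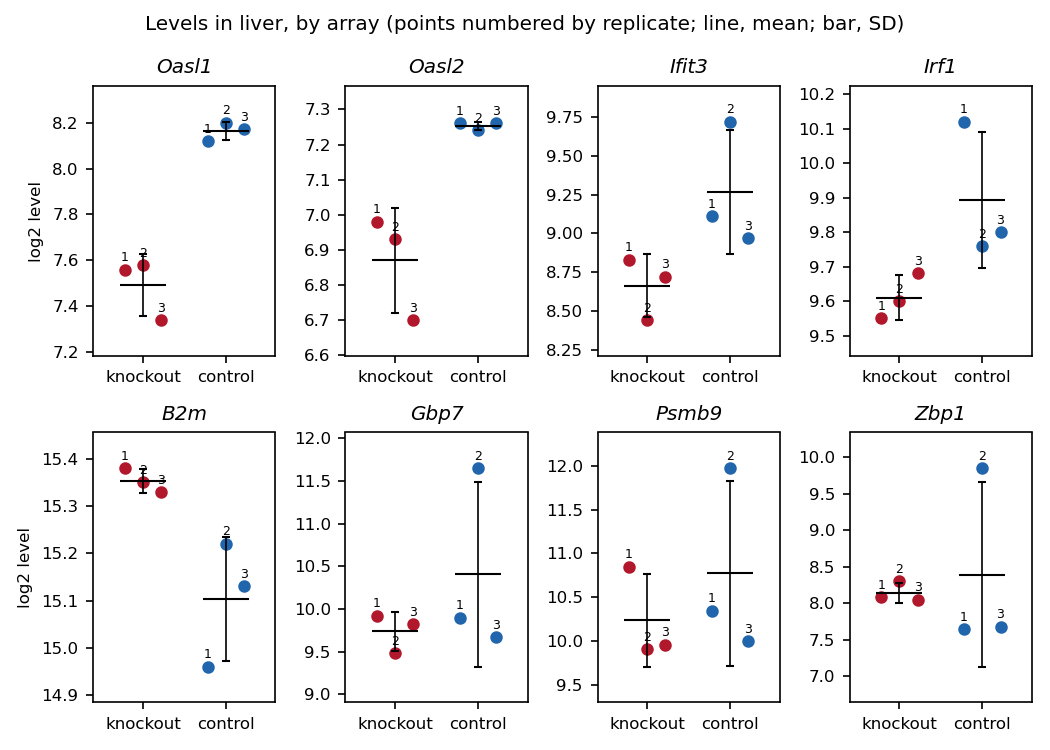
Log2 level (y axis, a separate range for each gene) of 8 genes on each liver array, knockout livers left (red) and control livers right (blue), with the replicate number at each point, the mean as a line and the SD as a bar (n = 3 each). Oasl1, Oasl2, Ifit3 and Irf1 lie lower and B2m higher in all knockout livers, while in Gbp7, Psmb9 and Zbp1, picked after their values were seen, control 2 lies above the other 5 arrays.

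The excess of control 2 was uneven among the roles. Its mean deviation was the highest of the 6 arrays in 8 of 9 roles, with 1.02 for the chemokines, 1.01 for the GTPases, 0.88 for antigen processing, 0.76 for the sensors and 0.74 for the IFIT genes. In the signalling and transcription factors control 1 was higher (0.22, against 0.13 on control 2). The SD within a group, as the median over the 35 genes, was 0.23 in knockout livers and 0.41 in control livers, against 0.28 and 0.29 over all genes. Without control 2, 13 of the 35 genes were more than 0.2 lower in knockout livers and 4 were more than 0.2 higher. These 13 held 4 of the 5 oligoadenylate synthetase genes (all but Oas3), Ifit2, Ifit3, Irf1, Irf7, Irf9, Ifih1, Mx1, Mx2 and 1 GTPase gene, Gbp3.

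Cell markers were set beside these values. The summed linear level of 14 Kupffer cell and macrophage markers was 18720, 16045 and 20349 in knockout livers, against 21519, 25572 and 19769 in control livers. The sum was highest on control 2, and bright markers weigh most in it. Taken singly, Clec4f, Vsig4 and Itgam were highest on control 1 and Cd163 on knockout liver 1. The other markers of the list were highest on control 2. Of these markers 13 were lower and 1 higher in knockout livers, the median difference was -0.25, 0 passed, and Marco and Itgam lay in the dimmer part of all genes. The 11 T and NK cell markers, Cd3d, Cd4, Cd8a and Ncr1 among them, all lay in the dimmer part, and summed to 627, 583 and 471 in knockout livers, against 483, 753 and 658 in control livers. The 5 B cell markers summed to 588, 516 and 469 in knockout livers, against 411, 683 and 704 in control livers. The 9 hepatocyte markers summed to 401620, 364690 and 356091 in knockout livers, against 259746, 343733 and 339930 in control livers. Of these 8 were higher and 1 lower, with a median of 0.28, 5 had groups apart as higher and 0 passed. After quantile normalization 4 were higher and 5 lower, with a median of -0.06. The part of these cells in the results was not tested. In bulk tissue, fewer cells of a type and less RNA per cell cannot be told apart.

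The genes around the interferon response were read from lists that share no gene with the 35. No interferon, receptor, kinase, sensor or negative regulator passed in liver. Of 36 other interferon-stimulated genes, 29 were lower and 7 higher in knockout livers, with a median of -0.21, and 0 passed. Control 2 was the highest array in 18 of them (50%), and without it 25 were lower with a median of -0.12. The smallest p among them belonged to Cxcl11, which encodes another ligand of CXCR3. It was 6.29, 6.33 and 6.02 in knockout livers, against 7.5, 7.47 and 6.88 in control livers (-1.07, SE 0.22, adjusted p = 0.341, limma), with no overlap. Irf8, a transcription factor of myeloid cells, differed by -0.64 (adjusted p = 0.587) and Erap1, the peptidase that trims MHC class I peptides, by -0.68 (adjusted p = 0.589), each with groups apart. Of the other lists, the smallest p belonged to Ifna1, a type I interferon gene (0.31, adjusted p = 0.692), the interferon gamma receptor gene Ifngr2 (-0.41, adjusted p = 0.73), the DNA sensor gene Tlr9 (-1.40, adjusted p = 0.721) and Socs3, an inhibitor of JAK kinases (0.21, adjusted p = 0.869).

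The F9 comparison asked how transcripts differ when an shRNA lowers SPS1 in a cell line that holds no immune cells. Of the 35 genes 3 passed: Bst2 and Irf1 fell and Xaf1 rose in shSPS1 cells. Over all genes 4.64% passed as lower and 2.56% as higher (845 and 465 genes, or 627 and 708 after each array was centred on its median). As a group the genes stayed near the rest of the table, with 24 lower and 11 higher (a negative difference in 68.6%, against 53.2% of all genes) and a median of -0.06, against -0.01 over all genes. The groups lay apart as lower in 5 of the 35, against 15.7% of all genes, and as higher in 3, against 12.2% of all genes, shares near those of the whole table. After median centring 18 of the 35 were lower.

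Bst2 was 7.07, 6.96 and 6.93 in shSPS1 cells, against 7.48, 7.82 and 7.80 in control cells. No shSPS1 array reached the lowest control array, control 1. The difference was -0.71 (SE 0.10, 95% interval -0.95 to -0.48, adjusted p = 0.00595, limma), a 1.64-fold lower level, and it ranged from -0.82 to -0.65 as arrays were left out. Irf1 was 7.73, 7.70 and 7.86 in shSPS1 cells, against 8.37, 8.14 and 8.25 in control cells. The groups did not overlap. The difference was -0.49 (SE 0.08, 95% interval -0.69 to -0.30, adjusted p = 0.0123, limma), a 1.41-fold lower level, and without shSPS1 replicate 2 the gene no longer passed (-0.46, adjusted p = 0.0699).

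Xaf1, whose product binds the apoptosis inhibitor XIAP, was 7.16, 7.16 and 7.22 in shSPS1 cells, against 6.73, 6.69 and 6.73 in control cells. Replicates lay close together and the groups were well apart. The difference was 0.47 (SE 0.06, 95% interval 0.32 to 0.61, adjusted p = 0.00428, limma). Its second probe set gave -0.09, and with the mean of both Xaf1 did not pass (0.19, adjusted p = 0.182). The brightest probe set of Xaf1 was a different one in liver, so its values in the 2 tissues come from different probes, as do those of Iigp1 and B2m.

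Of the signalling factors, Irf9 was 6.88, 6.87 and 6.88 in shSPS1 cells, against 6.65, 6.79 and 6.69 in control cells. All shSPS1 arrays lay above all controls. The difference was 0.17 (SE 0.07, adjusted p = 0.189, limma). Irf7 and Stat2 differed by 0.11 and -0.09, at signal percentiles of 13.7 and 48.8. Among the sensors Ifih1 had the smallest p, with 5.01, 4.98 and 4.93 in shSPS1 cells, against 5.23, 5.01 and 4.96 in control cells. The groups overlapped (-0.10, adjusted p = 0.61, limma). Usp18 was 3.54, 3.49 and 3.61 in shSPS1 cells, against 3.54, 3.65 and 3.47 in control cells, near the bottom of the table, with a difference of 0.00 (adjusted p = 0.988, limma).

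Ifit2 was 3.99, 3.82 and 4.25 in shSPS1 cells, against 4.48, 4.14 and 4.68 in control cells, at a dim signal. Replicate 3 of shSPS1 lay above control 2, so the groups overlapped, and the difference was -0.41 (SE 0.15, adjusted p = 0.173, limma). Ifit1 and Ifit3 each differed by 0.07. Oas2 was 6.61, 6.68 and 6.60 in shSPS1 cells, against 6.77, 6.97 and 6.79 in control cells. The groups lay apart by a small margin, and the difference was -0.21 (SE 0.08, adjusted p = 0.156, limma). Oasl1 differed by -0.29 with overlapping groups and with control 1 as its highest array (5.68), and Oasl2 by -0.01 at a signal percentile of 1.92.

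Parp14 was 4.24, 4.39 and 4.07 in shSPS1 cells, against 4.50, 4.63 and 4.77 in control cells. The groups did not overlap. The difference was -0.40 (SE 0.10, adjusted p = 0.0573, limma), and its second probe set gave 0.11. Without control 1 the gene passed (-0.47, adjusted p = 0.0371). All 6 GTPase genes had small negative differences (-0.14 to -0.04) at low signals. The smallest p of these was that of Iigp1, with 3.91, 3.78 and 3.77 in shSPS1 cells, against 3.83, 4.16 and 3.88 in control cells (-0.14, adjusted p = 0.513, limma), and the groups overlapped.

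B2m was 9.19, 9.03 and 9.06 in shSPS1 cells, against 8.99, 8.92 and 8.93 in control cells. All shSPS1 arrays lay above all control arrays. The difference was 0.14 (SE 0.07, 95% interval -0.02 to 0.31, adjusted p = 0.302, limma). Cxcl9 was 4.36, 4.38 and 4.23 in shSPS1 cells, against 4.49, 4.42 and 4.43 in control cells, apart by a narrow margin (-0.12, adjusted p = 0.387, limma). Cxcl10 was 3.36, 3.61 and 3.59 in shSPS1 cells, against 3.94, 3.58 and 3.66 in control cells, and overlapped (-0.21, adjusted p = 0.351, limma). Psmb8, Psmb9 and Tap1 differed by 0.03, -0.10 and -0.01.

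**Figure D4:**
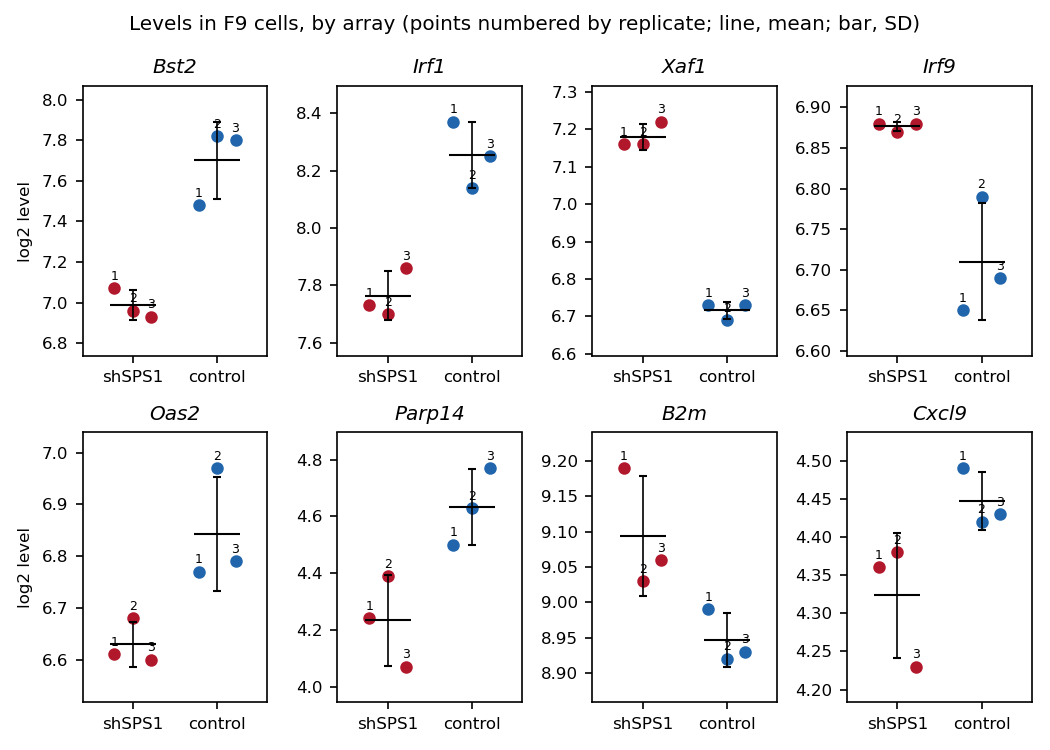
Log2 level (y axis, a separate range for each gene) of the 8 genes whose groups did not overlap in F9 cells, shSPS1 samples left (red) and control samples right (blue), with the replicate number at each point, the mean as a line and the SD as a bar (n = 3 each). Bst2, Irf1 and Xaf1 passed the test, with differences of -0.71, -0.49 and 0.47.

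Around the response, 4 of the 89 measured genes of the lists that share no gene with the 35 passed in F9 cells (4.49%), against 7.2% of all genes. Parp12, which encodes an ADP-ribosyltransferase of the same family as PARP14, was 5.27, 5.46 and 4.94 in shSPS1 cells, against 6.85, 6.80 and 6.94 in control cells. It fell by 1.64 (SE 0.12, adjusted p = 0.000393, limma), more than any of the 35. Samd9l, which encodes an antiviral and growth-restraining factor, was 8.46, 8.46 and 8.25 in shSPS1 cells, against 7.44, 7.66 and 7.78 in control cells, and rose by 0.77 (adjusted p = 0.00468). H2-K1, an MHC class I heavy chain, was 9.83, 9.97 and 9.84 in shSPS1 cells, against 10.69, 10.24 and 10.38 in control cells, and fell by 0.56 (adjusted p = 0.0277), while B2m, its light chain, did not pass. Ifnz, the gene of interferon zeta, a type I interferon, was 6.40, 6.28 and 5.88 in shSPS1 cells, against 7.02, 6.80 and 6.74 in control cells, and fell by 0.66 (adjusted p = 0.0277). Of the 36 other interferon-stimulated genes, 20 were lower and 16 higher, with a median of -0.02. The smallest p of the lists in which none passed belonged to the receptor gene Ifngr1 (0.28, adjusted p = 0.0811), the kinase gene Jak2 (-0.23, adjusted p = 0.124), the RNA-editing enzyme gene Adar (0.29, adjusted p = 0.10) and Ddx58, which encodes the RNA sensor RIG-I (0.20, adjusted p = 0.136). The 14 Kupffer cell and macrophage markers and the 9 hepatocyte markers all lay in the dimmer part of the F9 table.

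The liver and F9 comparisons share no arrays, and their values are set side by side. A negative difference in both was found for 23 of the 35 genes (65.7%), against 24.8% of all genes, and a positive one in both for 4. Another 7 were lower in liver and higher in F9 cells (Xaf1 among them, at 0.00 in liver), and 1 was the reverse. These counts rest on 30 genes lower in liver, or 22 without control 2, and 24 lower in F9 cells, or 18 after median centring. Among the 23, Usp18 (0.00), Oasl2 (-0.01) and Tap1 (-0.01) lay near 0 in F9 cells. Whether the signs in the 2 tissues go together was not tested. Irf1 was the 1 gene with groups apart as lower in both (-0.28 in liver and -0.49 in F9 cells). B2m was the 1 with groups apart as higher in both (0.25 in liver and 0.14 in F9 cells). Over all genes the groups lay apart as lower in 6.36% in liver and 15.7% in F9 cells, and as higher in 8.42% and 12.2%. The share of all genes apart in both was not counted. The values of B2m come from different probe sets, and the liver value turned to -0.05 after quantile normalization. The B2m probe set used in F9 cells gave 0.35 in liver as deposited, with groups apart. The one used in liver gave 0.07 in F9 cells, with overlapping groups. Bst2 differed by -0.43 in liver, where it overlapped, and by -0.71 in F9 cells. Oasl1, Oasl2 and Ifit3 lay apart in liver and overlapped in F9 cells, where they differed by -0.29, -0.01 and 0.07. No difference between the tissues was tested, since the tables were normalized separately.

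**Figure D5:**
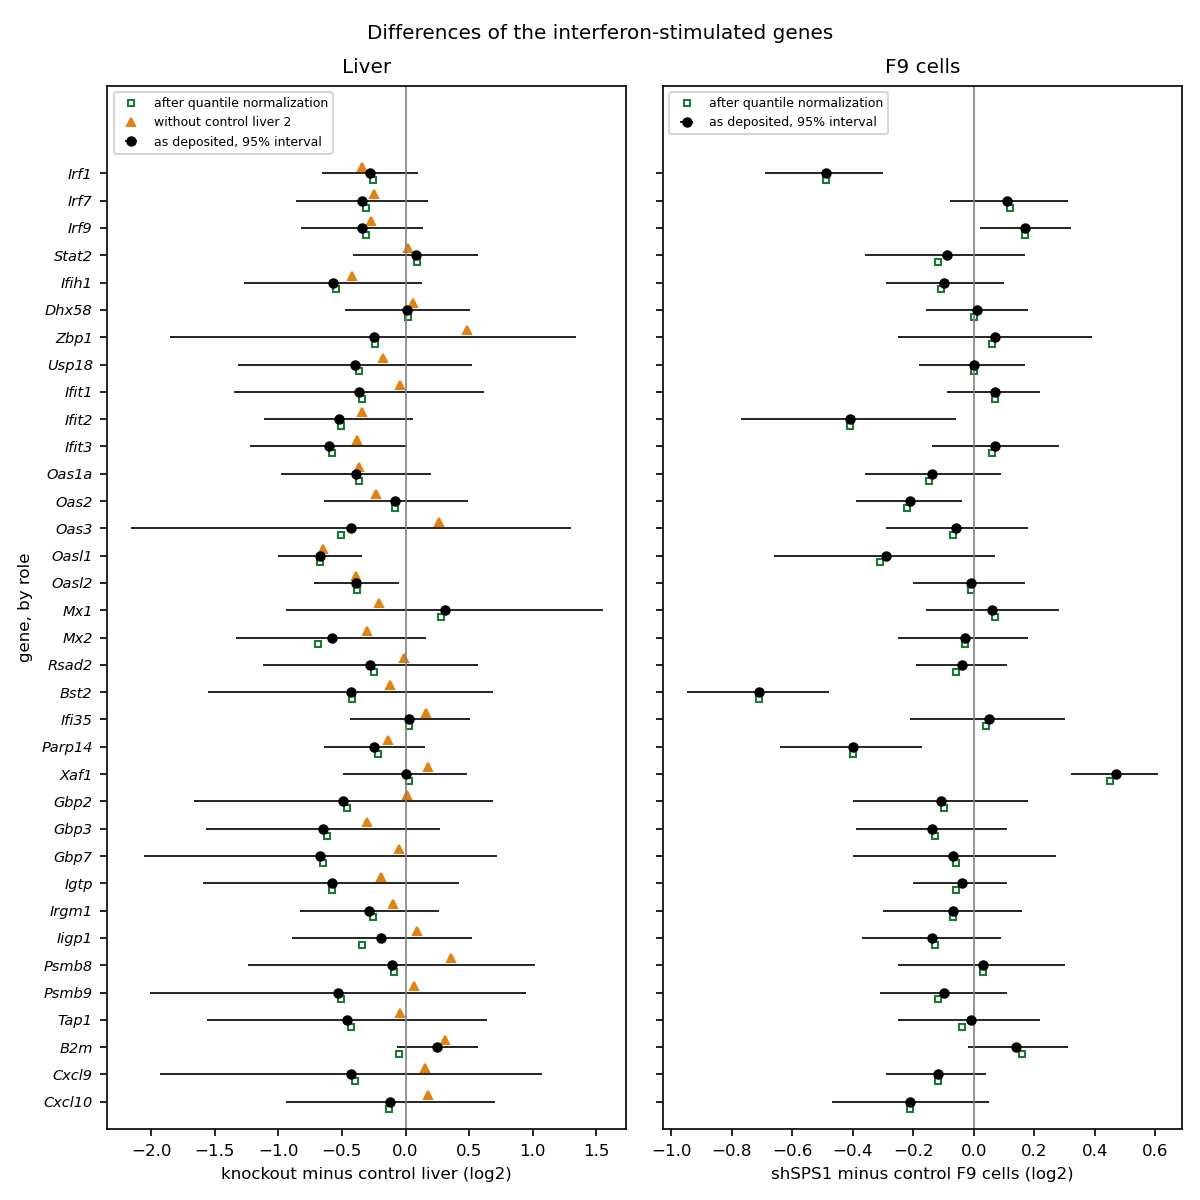
Log2 difference of each of the 35 genes (x axis), knockout minus control liver (left) and shSPS1 minus control F9 cells (right), as black points with 95% intervals from limma, with open squares after quantile normalization and, for liver, triangles without control liver 2. In liver 30 differences are negative with all arrays, of which that of Xaf1 (0.00) is drawn at 0, and 22 triangles lie below 0 without control 2. The liver interval excludes 0 for Oasl1 and Oasl2 alone.

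The probe sets gave a further view of the same arrays. The 35 genes had 54 probe sets, with several for 14 genes. Of the 19 further probe sets, 14 had the sign of the brightest of their gene in liver and 10 in F9 cells. Tap1 had 4 probe sets, with -0.46 for the brightest and 0.17, -0.94 and -0.43 for the others in liver. The others were dim, at signal percentiles of 26.6, 3.86 and 26.0 among probe sets, against 72.4 for the brightest. The second probe set of Gbp2 gave -0.83 in liver beside -0.49 for the brightest, and that of Parp14 gave 0.93 (SE 0.81) beside -0.25. For Iigp1 in liver the second probe set (percentile 98.2) gave -0.36 with groups apart as lower, beside -0.19 for the brightest. For Stat2 in liver it gave -0.23 beside 0.08, at percentiles of 60.4 and 64.1, so the sign of Stat2 depends on the probe set.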

How the data were processed

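RNA (100 ng, RIN above 9, per the labels' protocols) was labelled by in vitro transcription and measured on 12 Affymetrix mouse arrays in 4 groups of 3. The deposited values are log2 levels of 45101 probe sets per array. R 3.0.1 and affy 1.38.1 are named in the submitters' processing notes with no role, and the summary method and normalization are not given in the sources used here. The liver and F9 tables were handled separately.

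Probe sets were named through the platform's annotation. The 34945 with 1 gene symbol were used and 932 naming several genes left out, and 1 probe set was kept for each of 18193 genes, the brightest on average in that tissue. The groups were compared with limma 3.58.1 under R 4.3.3 (eBayes, two-sided, adjusted over all genes by Benjamini-Hochberg, with dim genes kept), and the procedure was tested on simulated data. The number of arrays limits the precision. Genes given with every array passed, had groups that did not overlap, or had the smallest p of their role. Of each list around the response, genes that passed were named, otherwise the gene with the smallest p. The genes and lists were chosen with earlier results of these data known. Alternatives were quantile normalization, median centring, leaving out the dimmest 50% of genes, averaging a gene's probe sets, a robust prior with an intensity trend, a replicate block and each array left out in turn. Promoters came from RefSeq tables of GRCm38.p6. No sequence is shown for Iigp1.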

Additional observations from a re-analysis of the deposited data

Results flagged for a closer look

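Irf7 and Irf9, both transcription factors of the interferon response, differed in opposite directions in liver and F9 cells. The knockout or shSPS1 arrays lay on the same side of the control mean within each tissue. The exception was Irf7 on shSPS1 replicate 3, which lay at the control mean (both 3.87). Irf7 differed by -0.34 in knockout minus control liver and by 0.11 in shSPS1 minus control F9 cells, where its signal was dim (percentile 13.7). Irf9 differed by -0.34 in knockout minus control liver and by 0.17 in shSPS1 minus control F9 cells. The groups overlapped for Irf7 in both tissues and for Irf9 in liver. Neither gene passed in either comparison, and the difference between the tissues was not tested.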

How the results depend on the processing

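In liver 0 of the 35 genes passed under every alternative (limma, 2 at an unadjusted p under 0.05, and 1 to 7 over the alternatives), with the lowest adjusted p between 0.0549, for Oasl1 without the dimmest 50% of genes, and 0.667. Of all liver genes 8 passed as deposited, 2 after quantile normalization and 2 with the mean of probe sets, 67 without the dimmest 50% of genes, 89 with an intensity trend and robust prior, and 0 to 3 with an array left out. With the replicate number as a block, 0 genes passed in liver and 662 in F9, of which 650 are among the 1310 that passed without it. Same-numbered arrays did not deviate together (correlations of -0.047, 0.013 and -0.005 in liver and -0.217, 0.010 and -0.146 in F9). Arrays with different numbers ranged from -0.219 to 0.242 in F9. Deviations of 3 arrays from their group mean sum to 0, so this check cannot exclude a shared day or batch. Genes among the 35 with groups apart numbered 5 in liver (5 to 13 with an array left out) and 8 in F9 (10 to 15). Over all genes the share apart was 14.8% in liver (22.9% to 27.3% with an array left out) and 27.9% in F9 (34.3% to 41.2%), since fewer arrays overlap less often. B2m in liver was -0.05 after quantile normalization, and Cxcl9 in liver, -0.43, ranged over -1.03 to 0.15. In F9 1310 genes passed, or 524 to 1452 with an array left out. The number lower was 4 of the 8 genes kept without the dimmest 50% of genes. The median in F9, -0.06, was -0.01 after median centring and -0.07 to -0.01 with an array left out (-0.01 without control 1). Usp18 in F9, 0.00, was 0.05 after centring and -0.05 to 0.04 with an array left out. The causes were not tested. The dim signal of most of these genes in F9 and 3 arrays a group limit what can be seen.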

Other observations

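The probe set that Isg15, the ubiquitin-like protein that tags other proteins, shares with Gm9706 gave 8.94, 8.70 and 8.72 in knockout livers, against 8.21, 9.97 and 8.86 in control livers. The control livers lay on both sides of the knockout livers and control 2 was the highest, as in most of the other genes (-0.22, unadjusted p = 0.653, limma). In F9 cells it gave 5.37, 5.55 and 5.48 in shSPS1 cells, against 5.38, 5.33 and 5.50 in control cells (0.07, unadjusted p = 0.434, limma). Transcripts of the 2 genes cannot be told apart by this probe set.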
